A study of Caenorhabditis elegans with 6 samples.

Results

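The abu and pqn genes of Caenorhabditis elegans, named for proteins activated in blocked unfolded protein response and for prion-like glutamine- and asparagine-rich proteins, were described across 6 RNA sequencing libraries of whole worms. Members were the rows whose gene name in the files is abu or pqn followed by a number, 77 of the 46245 genes listed (15 abu and 62 pqn). The worms carried eat-2(ad465), an allele of a pharyngeal acetylcholine receptor subunit whose mutants feed slowly, and acs-20(tm3232), an allele of an acyl-CoA synthetase gene. The ptr-8 strain carried ptr-8(mkc18), an allele of a patched-related membrane protein gene, in addition (strain DCL289, written ptr-8 eat-2; acs-20 in the plots), and the control strain carried only the other 2 alleles (strain DCL33, written eat-2; acs-20). Both strains were grown at 20 °C to late L4, the end of the last larval stage, and each gave 3 libraries. The labels name no wild type. They do not state whether replicates were separate cultures, so the p-values rest on a spread between libraries that could be technical. The design asks what the ptr-8 mutation changes in a background that already carries both other alleles.

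The members do not form 1 family. Many abu proteins, and pqn proteins related to them, are secreted and line the pharynx, the feeding organ, where they belong to its cuticle, a chitin-containing lining that is shed and rebuilt at each molt. Transcripts of this kind cycle with the molts, and several abu genes were first noticed because they rise under endoplasmic reticulum stress when the unfolded protein response is blocked. Most other pqn genes share with them only a stretch rich in glutamine and asparagine and encode unrelated intracellular proteins, among them scc-2 (listed as pqn-85), the cohesin loader, and tent-5 (listed as pqn-44), a poly(A) polymerase. Their sequences were not analysed here.

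Levels are FPKM (fragments per kilobase of transcript, relative to all mapped fragments) divided by 1 scaling factor per library, called scaled FPKM, in which genes of different length can be compared. The deepest library, control replicate 2, had 1.499 times the depth of control replicate 1, and the shallowest, control replicate 3, had 0.573 times that depth. The median half-width of the authors' FPKM interval over members at an FPKM of at least 1 in every library lay between 6.54% and 15.4%. Loci under 200 bp took 48.5% of the summed FPKM in ptr-8 strain replicate 2 and 24.2% in control replicate 1, against 6.53% to 13.7% in the other 4 libraries. ptr-8 itself was at 4.52, 5.13 and 5.73 scaled FPKM in the ptr-8 strain and at 23.7, 23.4 and 18.1 in the control strain (log2 fold change -1.89, limma adjusted p = 0.00532). acs-20 was at 43.0, 50.6 and 50.1 scaled FPKM in the ptr-8 strain and at 49.0, 69.0 and 68.0 in the control strain and did not pass (adjusted p = 0.271). eat-2, at 0 to 0.217 scaled FPKM in every library, was too low for a test. As the labels do not say what each allele removes, these levels are no check of the alleles.

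Of the 77 members, 62 reached a scaled FPKM of 1 in at least 3 libraries and were tested, 11 abu and 51 pqn. The other 15 never exceeded 1.397 scaled FPKM in any library. They are abu-2, abu-3, abu-4, abu-5, pqn-10, pqn-16, pqn-73, pqn-76, pqn-78, pqn-79, pqn-84, pqn-90, pqn-91, pqn-97 and pqn-98. abu-3, which the Ensembl annotation calls a pseudogene, and abu-5 are listed at 0 in all 6 libraries. abu-5 stands beside pqn-78 and pqn-79 on chromosome IV (15590697 to 15596645), and pqn-76 lies close by (15579086 to 15580161). Each of these 4 genes has a coding length of 335 codons, and pqn-76, pqn-78 and pqn-79 stayed at or under 0.0817 scaled FPKM. pqn-16 was at 0.542, 0.376 and 0.0851 in the ptr-8 strain and at 0.815, 0.157 and 0 in the control strain. abu-4 was at 0.777, 0.549 and 0.245 in the ptr-8 strain and at 1.293, 0.349 and 0 in the control strain.

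The 10 members with the highest levels were pqn-52, pqn-59, pqn-70, abu-13, pqn-53, pqn-32, abu-14, pqn-83, pqn-44 and pqn-68. Of these 10 names 8 are pqn, near the pqn share of all members (62 of 77). pqn-52 averaged 347 ± 11.7 scaled FPKM in the ptr-8 strain and 300.1 ± 40.8 in the control strain (SD, n = 3 each). pqn-59, a conserved RNA granule protein gene, averaged 182 ± 13.5 in the ptr-8 strain and 179.7 ± 2.46 in the control strain. pqn-70 averaged 179 ± 5.62 in the ptr-8 strain and 178 ± 9.03 in the control strain. Among the abu genes only abu-13, abu-14 and abu-12 averaged above 30 scaled FPKM over the 6 libraries, and the other tested abu genes averaged 1.56 to 24.4. Summed over all 77 members, the scaled FPKM was 2228, 2437 and 2174 in the ptr-8 strain and 2464, 2309 and 2215 in the control strain, so the strains overlapped.

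No member passed the comparison between strains. In limma with Benjamini-Hochberg adjustment over all 15206 tested genes, 0 of 62 members were lower and 0 higher, against a background of 2.22% of all tested genes in either direction (1.87% lower and 0.349% higher). At an unadjusted p below 0.05, 5 of 62 members stood out, 3 lower and 2 higher, against 20.7% of all tested genes. The lowest adjusted p was 0.0606. Fold changes are ptr-8 strain minus control strain of log2(scaled FPKM + 1), which understates changes of low genes. They ran from -0.46 (pqn-89) to 0.50 (pqn-2), with a median of 0.017 over the 62 members and 0.011 over all tested genes. For 46 of the 62 the 95% interval of the log2 fold change lay within -1 and 1. For the other 16 the interval reached past a 2-fold difference, among them abu-1, abu-10 and pqn-26, whose levels varied widely between libraries of the same strain.

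Several of the 10 largest fold changes came with overlapping libraries. pqn-26 was at 4.73, 5.91 and 2.36 scaled FPKM in the ptr-8 strain and at 7.14, 5.89 and 4.94 in the control strain (log2 fold change -0.44, SE 0.29, limma adjusted p = 0.426). pqn-72 was at 23.7, 22.1 and 21.0 in the ptr-8 strain and at 25.8, 14.8 and 11.1 in the control strain (0.43, SE 0.28, limma adjusted p = 0.426). The strains overlapped for pqn-26, and for pqn-72 all 3 ptr-8 libraries lay between the lowest and the highest control library. Among the genes of highest level, pqn-53 was at 110.5, 107.9 and 115 in the ptr-8 strain and at 110.6, 119 and 110.0 in the control strain. pqn-68 was at 88.5, 73.4 and 66.5 in the ptr-8 strain and at 84.6, 82.0 and 70.1 in the control strain. These strains overlapped as well.

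**Figure D1:**
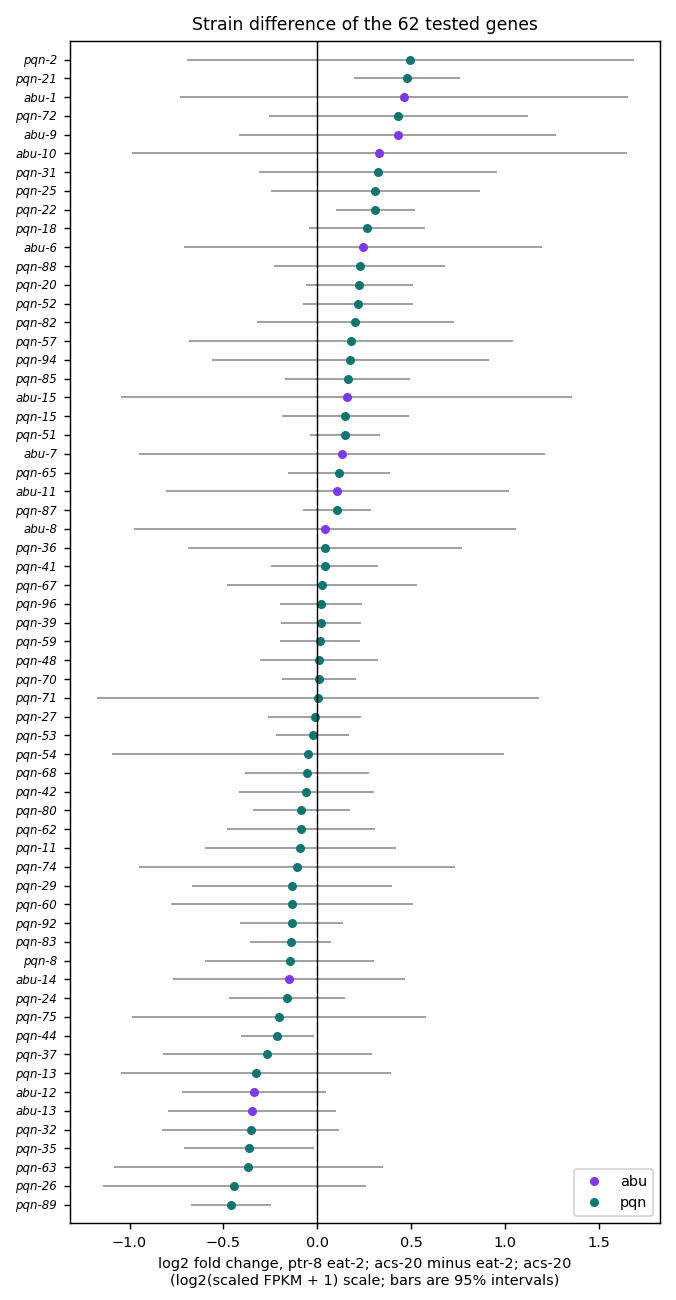
Log2 fold change (x axis, ptr-8 strain minus control strain, log2(scaled FPKM + 1) scale) of the 62 tested abu and pqn genes (rows), with 95% intervals from limma as bars. Estimates lie between -0.46 and 0.50, and the intervals of 5 genes leave out 0 before adjustment.

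A few pqn genes did separate the strains in every library without passing. For 4 members all 3 ptr-8 libraries were below all 3 control libraries (pqn-89, pqn-44, pqn-35 and pqn-83), and for 5 they were above (pqn-21, pqn-22, pqn-51, pqn-87 and pqn-15). Over all tested genes the shares were 13.7% and 13.9%, above those of the members. pqn-89 (chromosome IV, 6506726 to 6511040, plus strand, 9 exons) was at 47.4, 47.8 and 45.4 scaled FPKM in the ptr-8 strain and at 69.4, 60.1 and 65.0 in the control strain. Its libraries were tight within each strain and did not overlap between them (log2 fold change -0.46, SE 0.09, 95% interval -0.67 to -0.25, limma adjusted p = 0.0606). On FPKM as deposited, which moves the median of all genes up to 0.10, pqn-89 was at -0.36 (adjusted p = 0.723). pqn-21 (chromosome I, 6773994 to 6780151, minus strand) was at 10.9, 12.03 and 12.03 scaled FPKM in the ptr-8 strain and at 7.54, 9.21 and 7.59 in the control strain. All 3 ptr-8 libraries were higher (log2 fold change 0.48, SE 0.12, limma adjusted p = 0.103). pqn-22 (chromosome IV, 6019705 to 6033639) was at 71.6, 78.03 and 74.4 in the ptr-8 strain and at 59.3, 64.3 and 56.8 in the control strain (0.31, SE 0.09, limma adjusted p = 0.136). tent-5, the poly(A) polymerase gene listed as pqn-44, was at 78.1, 75.5 and 78.3 in the ptr-8 strain and at 90.99, 93.9 and 84.4 in the control strain (-0.21, limma adjusted p = 0.217). pqn-83 was at 86.0, 81.6 and 80.9 in the ptr-8 strain and at 88.2, 87.1 and 99.6 in the control strain, a narrow gap. pqn-35, which overlaps 4 other protein-coding genes, was at 19.4, 22.3 and 15.6 in the ptr-8 strain and at 26.0, 24.4 and 23.4 in the control strain. The other 5 had log2 fold changes of -0.36 (pqn-35), -0.14 (pqn-83), 0.15 (pqn-51), 0.10 (pqn-87) and 0.15 (pqn-15).

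Wide ranges between libraries of the same strain were shared among a group of abu and pqn genes, not among the members in general. The median range over the 62 members was 1.26-fold in the ptr-8 strain and 1.45-fold in the control strain. Over all tested genes it was 1.27-fold and 1.33-fold. For 26 of the 62 tested members, ptr-8 strain replicate 2 was the highest of the ptr-8 libraries and control replicate 1 the highest of the control libraries, against 8.98% of all tested genes. With at least a 2-fold range between libraries within each strain as well, 10 members remained (16 at a 1.5-fold range), against 0.934% of all tested genes. This description was chosen after the values were seen and was not tested, and it takes up no difference between the strains. The 10 are abu-1, abu-6, abu-7, abu-10, abu-15, pqn-2, pqn-54, pqn-57, pqn-71 and pqn-75. Just outside was abu-8, with a 1.98-fold range in the ptr-8 strain and 2.80-fold in the control strain. abu-1 and pqn-2 stood just inside, at 2.06-fold and 2.08-fold in the ptr-8 strain and 3.86-fold and 3.88-fold in the control strain.

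abu-10 (WBGene00000033, chromosome X, 3798179 to 3799741, plus strand) had the widest range of the members in the ptr-8 strain. It was at 6.32, 18.2 and 10.9 scaled FPKM in the ptr-8 strain and at 16.2, 9.08 and 3.85 in the control strain. The lowest and highest ptr-8 libraries differed beyond the authors' FPKM intervals, which after scaling ended at 7.42 in replicate 1 and began at 16.8 in replicate 2. In the control strain the interval began at 14.5 in replicate 1 and ended at 5.08 in replicate 3. These intervals express counting error only, and abu-10 was picked for its wide range. The means hardly differed, at 11.8 ± 6.02 in the ptr-8 strain and 9.72 ± 6.22 in the control strain (log2 fold change 0.33, SE 0.54, 95% interval -0.99 to 1.65, limma adjusted p = 0.766). abu-1 (WBGene00000024), 1 of the genes first seen under blocked unfolded protein response, was at 13.4, 27.5 and 16.4 in the ptr-8 strain and at 26.4, 11.7 and 6.84 in the control strain. pqn-54 (chromosome V, 1464990 to 1466350) was at 12.4, 29.9 and 17.1 in the ptr-8 strain and at 32.7, 17.4 and 12.4 in the control strain. pqn-75, whose product is known from pharyngeal gland cells, was at 2.51, 3.36 and 1.42 in the ptr-8 strain and at 4.66, 2.32 and 2.02 in the control strain. pqn-71 (chromosome V, 15465677 to 15467074) was at 1.49, 2.14 and 0.862 in the ptr-8 strain and at 4.07, 0.907 and 0.494 in the control strain, the widest range of the members in the control strain. Its level in control replicate 3 had an authors' interval that reached 0, so that range rests on few fragments. Of these 10 genes, control replicate 3 was the lowest of all 6 libraries for 9 and ptr-8 strain replicate 3 for 1. Summed over the 10, the scaled FPKM was 70.7, 157 and 90.1 in the ptr-8 strain and 159, 76.8 and 47.6 in the control strain. The highest library of each strain thus held similar amounts, and the other 4 libraries lay between 47.6 and 90.1. Which library was highest in each strain, and its distance from the others of that strain, follow from the rule that chose the genes.

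**Figure D2:**
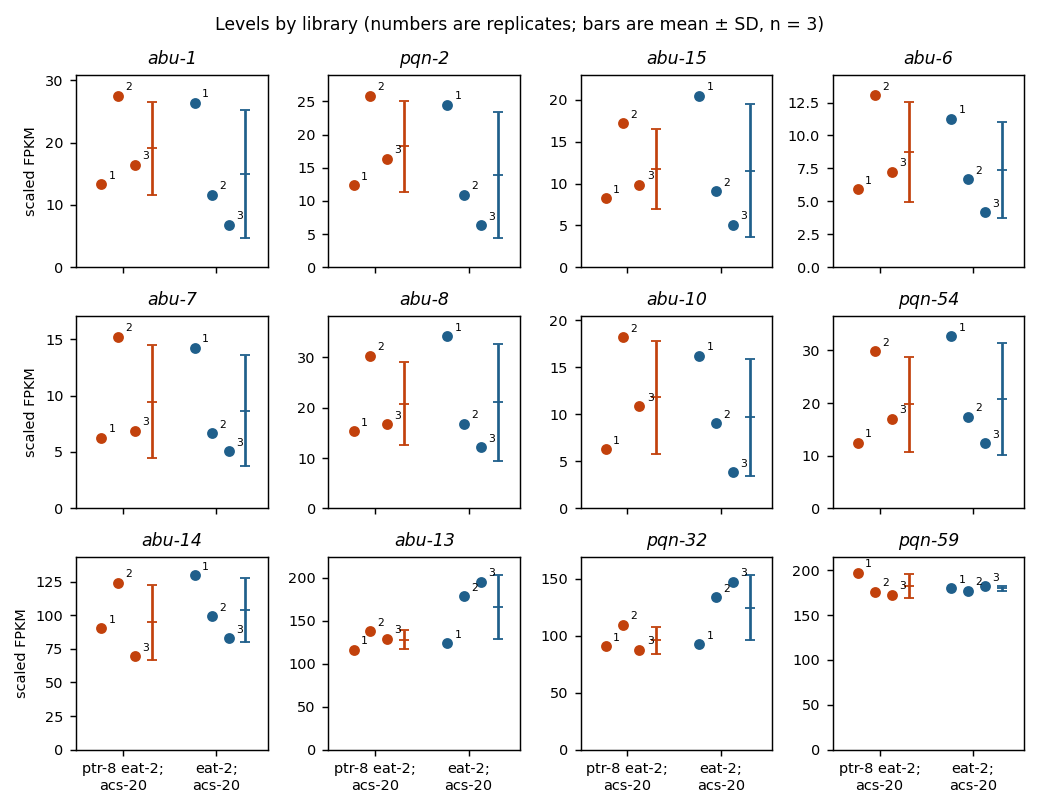
Scaled FPKM (y axis, from 0) of 12 abu and pqn genes in the 3 libraries of ptr-8 eat-2; acs-20 (left in each panel) and of eat-2; acs-20 (right). Points are libraries with their replicate number and bars are mean ± SD (n = 3). Replicate 2 of the first strain and replicate 1 of the second are highest for the first 9 genes, while abu-13 and pqn-32 are highest in control replicate 3 and pqn-59 varies little. Except for abu-8 and abu-14, the order in the first 9 follows from the rule of the shared pattern.

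Several of the genes with the shared pattern are neighbours. abu-15 (chromosome V, 5158623 to 5159897, plus strand), abu-6 (5160671 to 5161892, minus strand) and abu-7 (5163396 to 5164759, minus strand) stand side by side, and abu-8 (5192993 to 5194608, minus strand) lies beyond them. abu-15 was at 8.25, 17.2 and 9.85 scaled FPKM in the ptr-8 strain and at 20.5, 9.09 and 5.08 in the control strain. abu-6 was at 5.93, 13.1 and 7.25 in the ptr-8 strain and at 11.3, 6.67 and 4.16 in the control strain. abu-7 was at 6.27, 15.2 and 6.88 in the ptr-8 strain and at 14.2, 6.65 and 5.06 in the control strain. The same library was highest in each strain for all 3 genes, and for abu-8, at 15.3, 30.3 and 16.8 in the ptr-8 strain and 34.2, 16.8 and 12.2 in the control strain. For the 3 genes this follows from the rule of the shared pattern, as it does for abu-1 and pqn-2. Members elsewhere, such as abu-10 and pqn-54, met the same rule, so no link to position is drawn. abu-1 (chromosome V, 10380339 to 10381823, minus strand) and pqn-2 (10382442 to 10383976, plus strand) are neighbours on opposite strands, both of 425 codons. pqn-2 was at 12.4, 25.8 and 16.4 in the ptr-8 strain and at 24.5, 10.9 and 6.32 in the control strain, close to abu-1 in every library. pqn-57 and abu-9, neighbours on chromosome X (8319668 to 8323343) of 378 codons each, were lower. abu-9 was at 1.14, 2.15 and 2.35 in the ptr-8 strain and at 2.29, 0.947 and 0.446 in the control strain. Replicate 3 was nominally highest in the ptr-8 strain. After scaling, the authors' intervals overlapped in replicates 2 (1.61 to 2.69) and 3 (1.51 to 3.19), so their order is uncertain. In control replicate 3 the interval of abu-9 reached 0. The sources used here do not give how reads that match more than 1 gene were assigned, so the split within these neighbours is uncertain.

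Among the members, genes with few exons had wider ranges between libraries. Of the 61 tested members with an annotated coding sequence, 20 had at most 4 exons and 41 had more. The median range between libraries was 1.93-fold in the ptr-8 strain and 2.602-fold in the control strain for the 20, and 1.16-fold in the ptr-8 strain and 1.28-fold in the control strain for the 41. Over all tested genes, not split by exon number here, the medians were 1.27-fold in the ptr-8 strain and 1.33-fold in the control strain. This split of the members was not planned, and exon number was not separated from level or from neighbouring position. The shared pattern was seen in 8 of the 20 and in 2 of the 41 (abu-10 and pqn-75). The 10 genes with the shared pattern had coding lengths of 330 to 539 codons (median 388), and 7 of them lie on chromosome V and 2 on X. In all, 22 of the 77 members are on chromosome V and 14 on X.

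**Figure D3:**
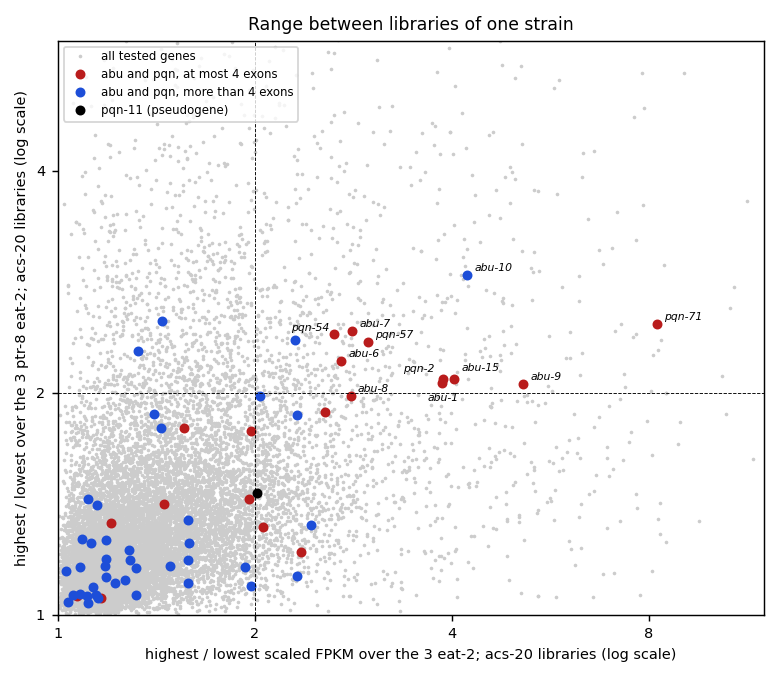
Highest over lowest scaled FPKM among the 3 libraries of eat-2; acs-20 (x axis, log scale) and of ptr-8 eat-2; acs-20 (y axis, log scale). Grey points are all tested genes (472 lie outside the axes or have a library at 0), coloured points are abu and pqn genes with at most 4 exons or with more, and dashed lines mark 2-fold. The genes beyond 2-fold on both axes include abu-10, pqn-71, abu-9 and abu-15.

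abu-14, abu-11, pqn-74 and pqn-63 were also highest in these 2 libraries, with a narrower range in at least 1 strain. abu-14 (WBGene00004174, chromosome II, 9225178 to 9227233), needed for a normal pharyngeal cuticle, was at 90.3, 124 and 69.4 scaled FPKM in the ptr-8 strain and at 129.6, 99.4 and 83.02 in the control strain. Its range was 1.79-fold in the ptr-8 strain and 1.56-fold in the control strain, and the strains overlapped (log2 fold change -0.15, SE 0.25, limma adjusted p = 0.770). abu-11 (chromosome II, 192531 to 194558), whose overexpression is known to lengthen worm life, was at 18.4, 34.6 and 21.9 in the ptr-8 strain and at 34.7, 23.4 and 13.5 in the control strain. pqn-74 (chromosome IV, 13329536 to 13331388) was at 35.3, 69.7 and 37.8 in the ptr-8 strain and at 68.5, 50.5 and 33.6 in the control strain. pqn-63 was at 9.69, 14.8 and 8.36 in the ptr-8 strain and at 20.4, 13.04 and 10.3 in the control strain. For pqn-94 and pqn-72 the range was wide in the control strain (2.35-fold and 2.32-fold) and narrow in the ptr-8 strain (1.22-fold and 1.13-fold).

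abu-13, pqn-32, abu-12 and pqn-62 ran the other way in the control strain. abu-13 (chromosome III, 6941888 to 6944738) was at 116, 138 and 129 scaled FPKM in the ptr-8 strain and at 124, 178 and 195 in the control strain. pqn-32 (chromosome II, 13108019 to 13110170) was at 90.7, 109.8 and 87.7 in the ptr-8 strain and at 92.9, 134 and 148 in the control strain. abu-12 (chromosome X, 450445 to 457648, 13 exons) was at 28.8, 31.03 and 33.5 in the ptr-8 strain and at 31.8, 41.1 and 47.2 in the control strain. pqn-62 was at 2.75, 3.03 and 2.91 in the ptr-8 strain and at 2.49, 3.13 and 3.93 in the control strain. In these 4 genes, grouped after their values were seen, control replicates 2 and 3 were above every ptr-8 library. Control replicate 1 lay among the ptr-8 libraries for abu-13, pqn-32 and abu-12 and below them for pqn-62. Neither abu-13 (log2 fold change -0.35, SE 0.18) nor pqn-32 (-0.35, SE 0.19) passed with all libraries (limma adjusted p = 0.337 and 0.348). With ptr-8 strain replicate 2 and control replicate 1 both left out, abu-13 (-0.60, adjusted p = 0.0464) and pqn-32 (-0.65, adjusted p = 0.0368) were the 2 of 58 tested members that passed, against 8.04% of all tested genes. That choice was made after the values were seen and leaves 2 libraries a strain. For both genes it drops the lowest control library and the highest ptr-8 library, so a larger fold change follows from the choice.

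At the other end, 16 of the 62 tested members varied by less than 1.25-fold among the libraries of either strain. That is near the share of all tested genes (28.3%), so steady levels are not particular to the members. None of the 16 is an abu gene. They had 3 to 23 exons (median 8) and average levels of 6.73 to 181 scaled FPKM. pqn-59 was at 197, 176 and 173 in the ptr-8 strain and at 179.7, 177 and 182 in the control strain. pqn-87 was at 46.2, 44.3 and 44.4 in the ptr-8 strain and at 41.2, 42.8 and 41.3 in the control strain. pqn-41, known for its part in the death of the linker cell of the male, was at 7.21, 7.90 and 6.63 in the ptr-8 strain and at 6.53, 6.80 and 7.74 in the control strain. Summed over the 16, the scaled FPKM was 989, 971 and 958 in the ptr-8 strain and 976, 975 and 994 in the control strain. That these sums vary little within a strain follows from the rule that chose the genes.

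**Figure D4:**
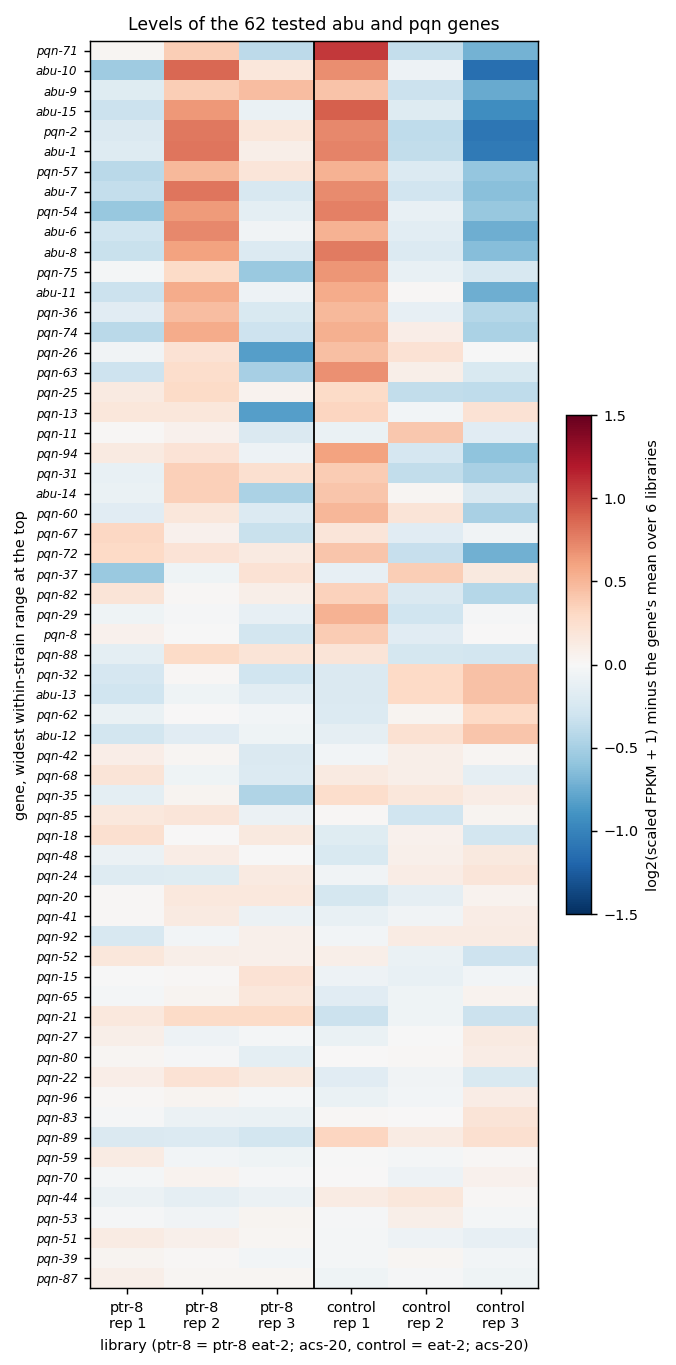
Level of each tested abu and pqn gene (rows, widest within-strain range at the top) in each library (columns, ptr-8 eat-2; acs-20 left and eat-2; acs-20, called control, right), as log2(scaled FPKM + 1) minus the gene's mean over the 6 libraries. The uppermost rows are red in ptr-8 replicate 2 and control replicate 1 and mostly blue in control replicate 3, and the lower rows are mostly pale.

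Other gene lists show what else went with these libraries. In whole worms, fewer cells of a type and less RNA per cell cannot be told apart. All 6 tested pharyngeal muscle genes were highest in ptr-8 strain replicate 2 and control replicate 1 within their strains. The same held for 5 of 7 pharyngeal gland genes. It held for only 1 of 5 pharyngeal and foregut regulators and 2 of 9 genes of chitin synthesis and binding, against 8.98% of all tested genes. None of the muscle and gland genes had a 2-fold range in both strains with that order. The mean log2 level of the muscle list was 4.04, 4.402 and 3.91 in the ptr-8 strain and 4.45, 4.09 and 3.79 in the control strain. That of the gland list was 3.690, 3.694 and 3.452 in the ptr-8 strain and 3.71, 3.49 and 3.52 in the control strain. The pharyngeal myosin gene myo-2 was at 6.60, 9.38 and 4.70 scaled FPKM in the ptr-8 strain and at 10.6, 7.13 and 6.07 in the control strain. The gland gene phat-4 was at 61.3, 74.1 and 41.9 in the ptr-8 strain and at 77.5, 43.1 and 49.0 in the control strain. kel-1, a kelch-repeat gene of the gland list, ran opposite, at 5.60, 1.66 and 5.16 in the ptr-8 strain and at 2.29, 9.26 and 7.33 in the control strain. Among 31 tested idpa, idpb, idpc and idpp genes, named for intrinsically disordered proteins, 17 had the same highest library in each strain. All 7 idpc genes were among the 142 genes with the full pattern, as were idpp-9 and idpp-10. Of these, idpc-6 was at 18.9, 58.9 and 16.4 in the ptr-8 strain and at 47.2, 30.03 and 15.3 in the control strain. Most of the 142 genes, 132 with the 10 members counted among them, are in none of the gene lists described here.

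The molting lists did not share the library order of the 10 abu and pqn genes in the control strain. Of 25 tested molting genes, 2 were highest in ptr-8 strain replicate 2 and control replicate 1 within their strains, and of 6 furrow collagen, 11 later collagen and 9 molt regulator genes none were. The furrow collagens, made early in each cuticle cycle, averaged 6.41, 7.30 and 6.72 in the ptr-8 strain and 6.39, 7.21 and 7.19 in the control strain on the log2 scale. They were high in ptr-8 strain replicate 2, as the 10 genes with the shared pattern were, but lowest in control replicate 1. dpy-7 of this list was at 103, 181 and 129 scaled FPKM in the ptr-8 strain and at 102, 184 and 188 in the control strain. The adult-stage collagens averaged 8.69, 8.23 and 8.62 in the ptr-8 strain and 8.21, 7.27 and 6.29 in the control strain on that scale, lowest in replicate 2 of the ptr-8 strain and in replicate 3 of the control strain. The part of stage, of pharyngeal RNA and of the loci under 200 bp in the levels of the abu and pqn genes was not tested.

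**Figure D5:**
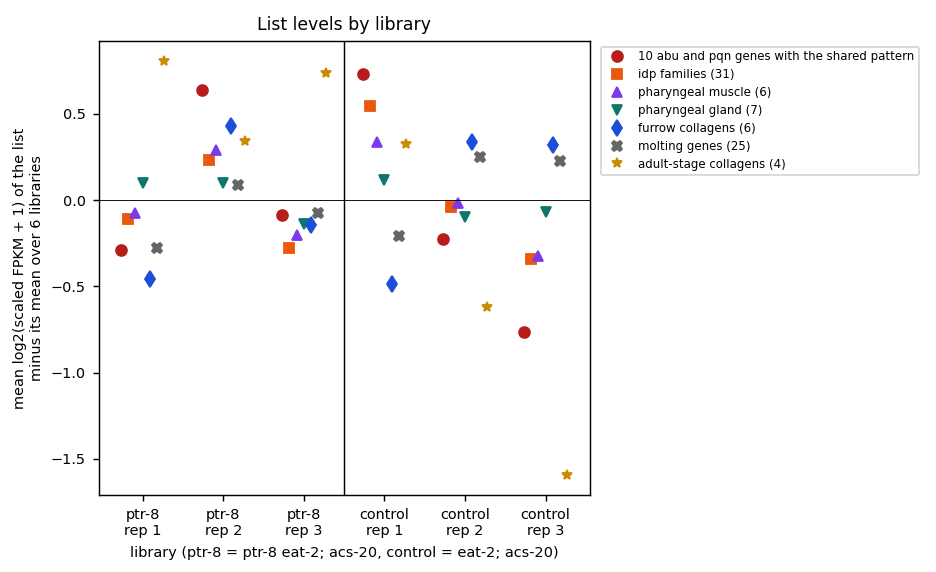
Mean log2(scaled FPKM + 1) of gene lists in each library minus the list's mean over 6 libraries (y axis), with ptr-8 eat-2; acs-20 left and eat-2; acs-20 (control) right. The 10 abu and pqn genes with the shared pattern, the idp families and pharyngeal muscle are highest in control replicate 1, where furrow collagens and molting genes are lowest within that strain. For the 10 genes, being highest there within the control strain follows from the rule that chose them.

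Across these lists, 1 gene passed between strains, among 5 tested of 10 pharyngeal and foregut regulators (2 at unadjusted p below 0.05). tbx-2, a T-box factor of pharyngeal muscle, was at 13.6, 13.8 and 13.5 scaled FPKM in the ptr-8 strain and at 7.55, 9.24 and 8.77 in the control strain (log2 fold change 0.63, SE 0.11, limma adjusted p = 0.0467). It failed when any library other than control replicate 1 was left out (adjusted p between 0.0953 and 0.176) and with upper-quartile scaling (0.0528), no scaling (0.262), no filter (0.0763) or a replicate block (0.0957). pha-4, which specifies the pharynx, was at 7.01, 8.85 and 7.43 in the ptr-8 strain and at 10.4, 12.8 and 10.9 in the control strain without passing (adjusted p = 0.122), and ceh-24 did not pass. In limma, 0 of 20 unfolded protein response genes passed (6 at unadjusted p below 0.05), with a median log2 fold change of -0.27 and ckb-2, pdi-6 and crt-1 of lowest p. ced-1, a receptor gene known to be needed for the expression of several abu and pqn genes, was at 15.3, 15.2 and 13.1 in the ptr-8 strain and at 18.9, 16.5 and 21.6 in the control strain (log2 fold change -0.36, adjusted p = 0.201). 0 of 9 chitin genes passed (5 at unadjusted p below 0.05, cpg-3, cpg-2 and chs-1 lowest), with a median of 0.61. chs-2, the chitin synthase of the pharynx, was at 3.30, 3.80 and 2.86 in the ptr-8 strain and at 4.30, 3.32 and 3.32 in the control strain. Its log2 fold change of -0.10 (limma adjusted p = 0.734) was opposite in sign to the median of the chitin list. 0 of 25 molting genes (6 at unadjusted p below 0.05, mlt-3, qua-1 and bli-5 lowest, median -0.21), 0 of 9 molt regulators (0, with nhr-25, lin-42 and blmp-1 lowest, median -0.24), 0 of 6 furrow collagens (0, with dpy-8, dpy-7 and dpy-3 lowest, median -0.12) and 0 of 11 later collagens (2, with dpy-17, dpy-4 and dpy-13 lowest, median -0.35) passed. Of 4 adult-stage collagens 0 passed, with 2 at unadjusted p below 0.05 (col-19, col-62 and col-7 lowest, median 1.66). For pharyngeal muscle (myo-2, myo-5 and tni-4 lowest, median 0.05) and gland genes (phat-5, kel-1 and phat-6 lowest, median 0.07), 0 of 6 and 0 of 7 passed, with 0 and 1 at unadjusted p below 0.05. No idp gene passed (0 of 31, 0 at unadjusted p below 0.05, idpp-14, idpp-2 and idpa-1 lowest, median -0.13). For 20 tested fipr and 11 nspb genes, which are short, 8 of the 31 are listed at 0 in ptr-8 strain replicate 2, so their fold changes (medians -0.13 and -0.17, 0 passed and 0 at unadjusted p below 0.05; fipr-29, fipr-4, fipr-21, nspb-1, nspb-7 and nspb-6 lowest) are not read here.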

How the data were processed

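Whole worms of 2 strains gave 3 libraries each. Per the labels' protocols, total RNA was made into libraries with a VAHTS Universal V8 kit. The labels give no strandedness. Overlapping and antisense genes may therefore hold each other's reads (15 members overlap another protein-coding gene). FastQC 0.11.5, TopHat2, DESeq2 and HTSeq appear in the submitters' processing notes with no role given. The genome build is not given in the sources used here. The authors deposited 1 table per library in the Cufflinks layout with FPKM and its bounds, per the file headers. No 2 of the 6 libraries were identical.

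Members and lists were chosen with earlier results of these data known. FPKM was divided by a trimmed mean of log ratios against the geometric mean library (trimming 30% by ratio and 5% by level on either side, factors 0.869 to 1.325). Loci under 200 bp and 10 genes marked FAIL were left out. Genes needed a scaled FPKM of 1 in 3 libraries. limma 3.58.1 (R 4.3.3, intensity trend) was fitted to log2(scaled FPKM + 1) over 15206 genes with strain as the only term, and a gene passed at an adjusted p below 0.05. The procedure was tested on simulated data. Relative depth was read from the FPKM intervals of 6121 genes with 1 transcript, taking the half-width as 2 standard errors. These intervals express counting error only.

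Named with values were the 10 members of highest level, the 10 of largest fold change and those whose strains do not overlap, and, named only, the 3 genes of lowest p per list. Other genes were chosen after their values were seen. Positions are the files' own, raised by 1 at the start. In Ensembl's WBcel235 annotation all 77 member IDs were found, 72 within 1000 bp at both ends. Strands, exons and coding lengths are from that annotation. 70 members keep the same symbol today.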

Additional observations from a re-analysis of the deposited data

How the results depend on the processing

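The count of abu and pqn genes that passed stayed at 0 lower and 0 higher under median-of-ratios and upper-quartile scaling, FPKM as deposited, a pseudocount of 0.1, no filter, a replicate block (0 and 0, lowest adjusted p 0.114) and with each library left out in turn (0 to 0, lowest adjusted p 0.0555). Leaving out ptr-8 strain replicate 2 and control replicate 1 together, chosen after the data were seen, gave 2 lower and 0 higher. Over all genes the calls numbered 285 lower and 53 higher, but 391 and 283 without control replicate 1 and 44 and 18 without control replicate 3. With a replicate block they numbered 124 lower and 25 higher. Whether the replicate numbers pair the libraries is not settled by the values. Deviations from the strain means correlated at 0.25, 0.05 and 0.03 across genes for numbers 1, 2 and 3. Number 1 gave the highest correlation of any combination, but not every library correlated best with its own number.

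The number of members with the shared library pattern was 10, and 18 on FPKM as deposited and 16 at a 1.5-fold range. It needs 3 libraries a strain and was not recomputed with 1 left out. Of 298 recomputed fold changes of 23 named members, 285 kept their direction and side of the threshold, 2 newly passed and 11 changed sign. On FPKM as deposited pqn-53 was at 0.077 and pqn-68 at 0.046. Without the 2 libraries together pqn-70 was at -0.011 and pqn-68 at 0.018. With 1 library left out, pqn-59 ran from -0.044 to 0.052, pqn-70 from -0.029 to 0.043, pqn-53 from -0.050 to 0.010, abu-14 from -0.37 to 0.050 and pqn-68 from -0.17 to 0.035. The causes were not tested. In 16 of the 62 members, abu-1 and abu-10 among them, the interval allows a 2-fold difference between strains.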
